A study of Mus musculus with 4 samples.

Results

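Metallothioneins and targets of the transcription factor NRF2 were measured in mouse embryonic stem cells labelled conditional knockout or knockout for the histone demethylase UTX. The group held 10 genes of the 18193 that the array names, 2 metallothioneins (Mt1, Mt2) and 8 NRF2 targets (Nqo1, Hmox1, Gclc, Gclm, Txnrd1, Srxn1, Slc7a11, Gsta4). They were taken by name, with every probe set that the array annotation assigns to only one of these genes, which gave 19 probe sets of 34945. A probe set is a group of short probes for one transcript, and its signal is a brightness on a linear scale.

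Total RNA came from 4 embryonic stem cell lines, 2 labelled UTX conditional knockout (cKO1 and cKO2) and 2 labelled UTX knockout (KO1 and KO2), with 1 Affymetrix Mouse Genome 430 2.0 array each. All 4 lines were kept on irradiated fibroblast feeders, freed of them by 2 passages on gelatin, and grown in the same medium, with 15% serum, LIF at 1000 units per ml and the reducing agent mercaptoethanol at 0.1 mM. The labels give no agent or time for the deletion, do not say whether UTX had been deleted in the cKO lines at harvest, and do not say that a KO line came from the cKO line of the same number. They call the cKO lines independent but name no separate cultures, so the spread between lines may in part be technical. The p-values below set the group difference against a spread within groups that was estimated partly from other genes. Having 2 lines per group limits every value.

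Metallothioneins are small, cysteine-rich proteins that bind zinc, copper and cadmium. Their genes are switched on by the zinc-sensing factor MTF1, which binds metal response elements, and also by oxidative stress. NRF2 (gene Nfe2l2) is held in the cytoplasm and marked for degradation by KEAP1. Electrophiles and oxidants modify KEAP1, and NRF2 then enters the nucleus, pairs with a small MAF protein and binds antioxidant response elements near genes for glutathione synthesis, thioredoxin recycling and detoxification. BACH1 competes for the same elements and represses some of these genes, Hmox1 above all.

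Promoter sequences are shown first, because both gene families are known for the short elements through which they are controlled. The RefSeq promoter table (GRCm38.p6), which runs from 250 bases before to 50 bases after each annotated start, held 9 windows for 7 of the 10 members: Mt1, Mt2, Nqo1, Gclm, Txnrd1, Srxn1 and Slc7a11. The antioxidant response element core was searched as TGACNNNGC and the metal response element core as TGCNCNC, on both strands. The metal core was written with N in place of R (A or G), so this search was looser than the core. A match describes the letters only. TGACNNNGC was present in 12.4% of all 32851 windows of this length and TGCNCNC in 51%. The windows of the group that held it are given with the antioxidant core in capitals and 12 bases on each side, in the direction in which the core reads TGAC. They lie at chr2:152105540-152105572 for Srxn1 (minus strand), chr3:122245411-122245443 for Gclm (minus strand), chr10:82859102-82859134 for Txnrd1 (minus strand, in 1 of its 3 windows) and chr8:94172527-94172559 for Mt2 (plus strand).
Srxn1: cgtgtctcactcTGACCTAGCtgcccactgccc
Gclm: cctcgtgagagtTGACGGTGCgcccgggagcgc
Txnrd1: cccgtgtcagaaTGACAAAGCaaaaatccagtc
Mt2: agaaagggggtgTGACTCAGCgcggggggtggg

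The windows of Mt1, Nqo1 and Slc7a11 held no match to TGACNNNGC. The metallothionein windows are given whole, because both genes are known for their metal response elements. Bases outside the windows were not searched, so elements lying there would be missed. The Mt1 window (chr8:94178839-94179138, plus strand) held 3 matches to TGCNCNC and the Mt2 window (chr8:94172368-94172667, plus strand) held 6, all in capitals here. At least 3 matches were found in 7.1% of all windows and at least 6 in 0.225%. The Srxn1 and Gclm windows also held 3 each, so the Mt1 count was not particular to metallothioneins. The Nqo1 window held 2, each Txnrd1 window 0 or 1, and the Slc7a11 window 0. Some of the 6 Mt2 matches lack A or G at the base where the core requires it, while all 3 Mt1 matches have it. No metal core match overlapped the antioxidant core of Mt2, while 1 did so in the Gclm window.
Mt1: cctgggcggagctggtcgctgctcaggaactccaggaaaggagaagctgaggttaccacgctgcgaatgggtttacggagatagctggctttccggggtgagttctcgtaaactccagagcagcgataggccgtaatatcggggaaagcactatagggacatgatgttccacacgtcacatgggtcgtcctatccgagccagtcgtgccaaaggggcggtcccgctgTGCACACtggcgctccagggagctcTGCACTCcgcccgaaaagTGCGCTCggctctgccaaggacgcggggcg
Mt2: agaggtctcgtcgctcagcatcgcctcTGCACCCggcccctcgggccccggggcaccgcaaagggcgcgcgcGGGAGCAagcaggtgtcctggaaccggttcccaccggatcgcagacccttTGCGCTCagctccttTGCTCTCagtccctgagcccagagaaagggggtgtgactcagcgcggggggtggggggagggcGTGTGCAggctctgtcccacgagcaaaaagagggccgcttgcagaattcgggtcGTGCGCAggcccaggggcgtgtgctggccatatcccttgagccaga

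The targeted gene and the cell identity were checked. Kdm6a, which encodes UTX, read 658 in cKO1, 415 in cKO2, 265 in KO1 and 198 in KO2 (log2 fold change -1.17, adjusted p = 0.0884 in limma). It passed without cKO2 (-1.50, adjusted p = 0.0156), without KO1 (-1.38, adjusted p = 0.00985) and with arrays centred on the median (adjusted p = 0.0283), while the mean of its probe sets gave -0.57 (adjusted p = 0.513). A second Kdm6a probe set read 382 and 267 in cKO against 153 and 132 in KO (-1.14). The mean also gives equal weight to dim Kdm6a probe sets, which read 8.01 to 12.7 and 25.2 to 43.0 over the arrays. Where the Kdm6a probes lie relative to the deletion was not examined, so the values are only a partial check of the labels. All 10 embryonic stem cell markers, among them Pou5f1, Sox2 and Nanog, lay above the filter level of 77.7 on every array, with summed signals of 87286 in cKO1, 86951 in cKO2, 101420 in KO1 and 94186 in KO2. Markers of feeder fibroblasts had lower summed signals in KO. Of 19 markers with a probe set, 12 were bright enough to test, 3 of them fell in KO (6 without cKO2), where 1.57% of all genes tested fell, and the summed signal of the list was 31053 and 23368 in cKO against 16326 and 16463 in KO. Acta2, Tagln and Fn1 were the brightest of the list and weigh most in that sum. Acta2 read 10141 and 6210 in cKO against 4163 and 4809 in KO, and Tagln 8938.5 and 7092 against 2230 and 2469. Fn1, at 7601 and 7100 against 8014 and 7274, was the 1 tested feeder marker with a positive value, against 11 negative. Of the feeder markers Lum and Prrx1 stayed below the filter level on all arrays. The 12 primitive endoderm markers had summed signals of 1716 to 2393 over the arrays. Of these markers 3 could be tested, with a median log2 fold change of -0.997. Lama1 rose (0.87, adjusted p = 0.043 in limma), a call that ended without cKO1, cKO2 or KO2, while Dab2 (-1.34, adjusted p = 0.0576) and Amn (-0.997, adjusted p = 0.133) read lower in both KO lines and did not pass. Of the trophoblast markers 5 of 8 could be tested and 0 were called, 2 having an unadjusted p under 0.05. The part of the feeder signal in the values below was not tested, and fewer cells of a type cannot be told apart from less RNA per cell. The median signal of an array followed the line number, at 76.6 and 81.6 in lines 1 against 64.4 and 64.9 in lines 2.

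In KO cells most metallothionein and NRF2 target signals lay slightly above those in cKO cells, and none passed the test. Differences were tested with limma over 10916 genes, each represented by its brightest probe set and called at an adjusted p under 0.05. The filter left out genes with a mean signal below 77.7, which removed Slc7a11 and kept 9 members. Of these 9, limma called 0, where 2.2% of all genes tested were called. At an unadjusted p under 0.05 there were 3 (Nqo1, Srxn1 and Mt1), against 13.8% of all genes. In 7 of the 9, both KO signals lay above both cKO signals, against 21.4% of all genes, and in 0 of the 9 did both lie below, against 21.2%. The log2 fold change was positive for 8 of 9, with a median of 0.28, while it was positive for 51.4% of all genes, with a median of 0.01. The members and all lists were chosen with earlier results of these data known. Their shares beside those of all genes, here and below, are therefore descriptions and not a test. The plot of member signals by array shows these values.

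**Figure D1:**
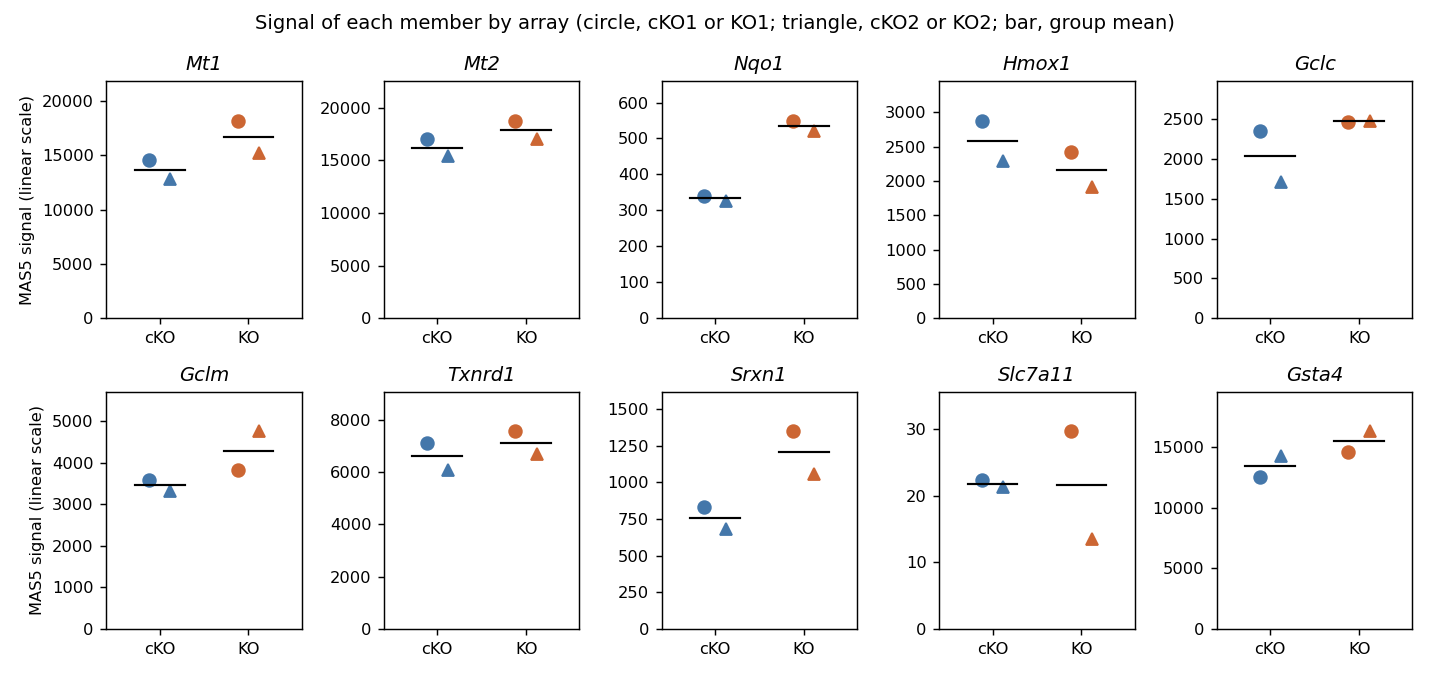
MAS5 signal (linear scale, from 0) of the brightest probe set of each of the 10 members in cKO and KO lines, with circles for line 1, triangles for line 2 and bars for the group means. Nqo1 and Srxn1 show the widest gap between groups, Hmox1 is the one tested member with a lower KO mean, and Slc7a11 stays under 30 on every array.

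Nqo1 and Srxn1 stood furthest from their cKO levels. Nqo1 encodes a quinone reductase that is a standard readout of NRF2 activity. Its single probe set read 341 in cKO1, 326 in cKO2, 550 in KO1 and 522 in KO2. The KO lines were alike, the cKO lines were alike, and the groups did not overlap. The cKO mean was 334 ± 11 and the KO mean 536 ± 19.7 (SD, n = 2 each), a ratio of 1.61. On the log2 scale KO exceeded cKO by 0.68 (SE 0.17), with an unadjusted p of 0.0048 and an adjusted p = 0.112 in limma.

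Srxn1 encodes sulfiredoxin, which restores overoxidised peroxiredoxins. Its brightest probe set read 833 in cKO1, 678 in cKO2, 1348 in KO1 and 1059 in KO2. Both KO lines lay above both cKO lines, and in each group line 1 read above line 2. The means were 756 ± 110 and 1204 ± 204 (SD, n = 2 each), and the log2 fold change was 0.67 (SE 0.19), with an unadjusted p of 0.0099 and an adjusted p = 0.164 in limma. This probe set, like the brightest ones of Mt1 and Gclc, is of a kind whose probes may be shared by several transcripts. The other 3 probe sets of Srxn1, not of that kind, did not all repeat the difference. One read 567 and 455 against 733 and 586, with groups apart and a log2 fold change of 0.36. A dimmer one read 264 and 157 against 388 and 190 (0.41), and the dimmest read 121 and 63.3 against 73.3 and 85.9 (-0.14), both with overlapping groups. The fold change of Srxn1 therefore ranged from -0.14 to 0.67 over its probe sets, and the mean of the 4 gave 0.33 (adjusted p = 0.723).

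The metallothioneins were bright in every line. Mt1 read 14551 in cKO1, 12831 in cKO2, 18213 in KO1 and 15189 in KO2. Both KO signals lay above both cKO signals, KO2 by a small margin over cKO1. The means were 13691 ± 1216 and 16701 ± 2138 (SD, n = 2 each), 1.22-fold higher in KO, a difference of 0.28 on the log2 scale (SE 0.11, unadjusted p = 0.0403, adjusted p = 0.325 in limma). A second, far dimmer Mt1 probe set read 270 in cKO1, 105 in cKO2, 565 in KO1 and 182 in KO2. Here the groups overlapped, since line 1 was 2.57-fold above line 2 in cKO and 3.11-fold in KO. Its log2 fold change was 0.91 (SE 0.58, adjusted p = 0.638 when every probe set was fitted on its own).

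Mt2, the neighbour of Mt1, read 16990 in cKO1, 15415 in cKO2, 18789 in KO1 and 17063 in KO2. KO2 and cKO1 were almost level, so the groups were only just apart. The means were 16203 ± 1114 and 17926 ± 1221 (SD, n = 2 each), 1.11-fold higher in KO, a difference of 0.15 on the log2 scale (SE 0.09, adjusted p = 0.568 in limma). The highest signal of any probe set on an array ran from 23771 to 25877. Whether signals as bright as those of Mt1 and Mt2 still respond in proportion to the RNA was not tested. The remaining metallothioneins are brain and epithelial forms. Mt3 read 223 in cKO1, 231 in cKO2, 269 in KO1 and 309 in KO2 (log2 fold change 0.34, adjusted p = 0.548), and Mt4 read 129, 114, 116 and 74.2 in the same order (-0.37, adjusted p = 0.716).

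Glutathione synthesis begins with glutamate-cysteine ligase, whose catalytic subunit is Gclc and whose modifier subunit is Gclm. The brightest Gclc probe set read 2351 in cKO1, 1719 in cKO2, 2474 in KO1 and 2486 in KO2. The KO lines were nearly equal, while cKO2 stood low and cKO1 came close to the KO lines. In limma the difference was 0.30 on the log2 scale (SE 0.18, adjusted p = 0.544). It depended on single cKO lines, with 0.53 when cKO1 was left out (adjusted p = 0.330) and 0.08 when cKO2 was (adjusted p = 0.993). The second Gclc probe set read 1577 and 1424 against 1759 and 2151, again with groups apart (log2 fold change 0.38, adjusted p = 0.443 when every probe set was fitted on its own).

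Gclm read 3576 in cKO1, 3322 in cKO2, 3810 in KO1 and 4751 in KO2. The groups were apart, with KO2 well above the rest. Between groups Gclm differed by 0.30 on the log2 scale (SE 0.15, adjusted p = 0.433 in limma), and 0.14 without KO2 (adjusted p = 0.831). A dimmer Gclm probe set read 416 and 397 against 421 and 443, a log2 fold change of 0.09, so the 2 probe sets shared the sign but not the size. The cystine importer that feeds this synthesis, Slc7a11 (xCT), was not detectable above the low end of the scale. One probe set read 22.4, 21.3, 29.7 and 13.6 and the other 19.9, 17.2, 4.25 and 1.95, in the order cKO1, cKO2, KO1 and KO2. Both lay under the filter level of 77.7 on all 4 arrays, so neither was tested and no fold is given.

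**Figure D2:**
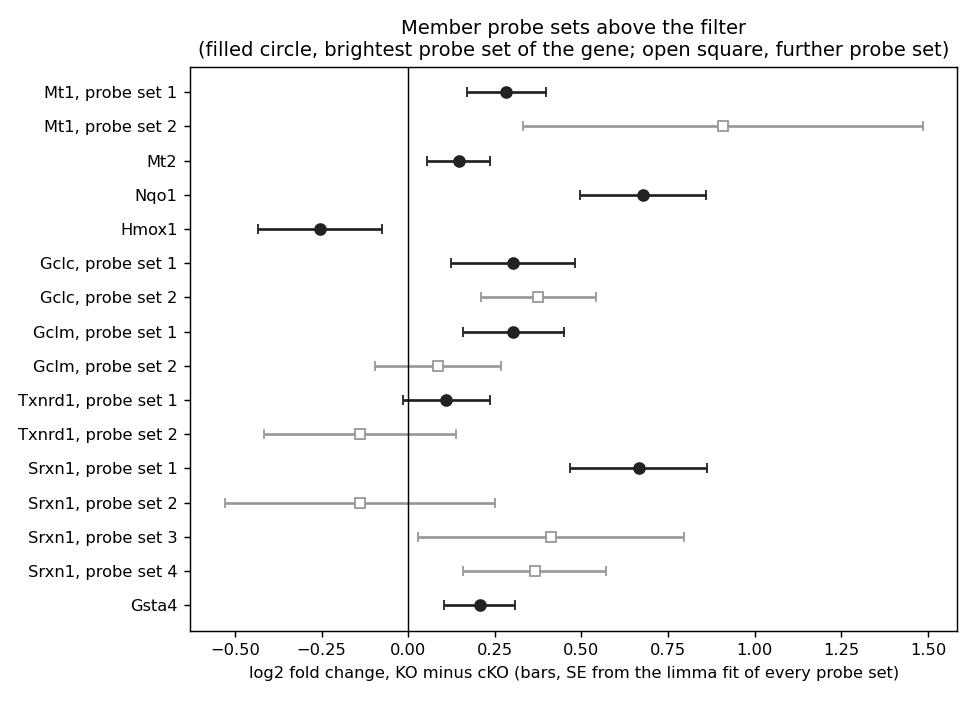
Log2 fold change (KO minus cKO, x axis) of the 16 member probe sets above the filter, with SE bars from the limma fit of every probe set. Filled circles mark the brightest probe set of a gene and open squares its further probe sets, which differ in size for Mt1 and in sign for Srxn1 and Txnrd1.

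Txnrd1, the cytosolic thioredoxin reductase, overlapped between groups. It read 7118 in cKO1, 6080 in cKO2, 7559 in KO1 and 6672 in KO2, with line 1 above line 2 in each group. Its log2 fold change was 0.11 (SE 0.12, adjusted p = 0.792 in limma), and without cKO2 it was -0.0033 (adjusted p = 0.999). Its second probe set read 433 and 276 against 368 and 267 (-0.14). The third, of a kind whose probes may bind other transcripts, stayed under the filter level on all arrays.

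Gsta4, a glutathione transferase that clears lipid peroxidation products, read 12577 in cKO1, 14309 in cKO2, 14650 in KO1 and 16342 in KO2. The groups were just apart, and here line 2 read above line 1 in each group, opposite to Srxn1, Mt1 and Txnrd1. The means were 13443 ± 1224 and 15496 ± 1196 (SD, n = 2 each), a difference of 0.21 on the log2 scale (SE 0.10, adjusted p = 0.444 in limma).

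Hmox1, the inducible haem oxygenase, was the one tested member with a negative value. It read 2882 in cKO1, 2286 in cKO2, 2416 in KO1 and 1914 in KO2. The groups overlapped, since KO1 read above cKO2. Line 1 was 1.26-fold above line 2 in both groups. Its log2 fold change was -0.25 (SE 0.18, adjusted p = 0.637 in limma). Leaving out 1 array moved it between -0.42 (without KO1 or cKO2) and -0.09 (without cKO1 or KO2).

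With each array left out in turn, limma again called 0 of the 9 members. The log2 fold change of Nqo1 moved least, from 0.64 to 0.71, and that of Srxn1 ran from 0.49 to 0.84. For Mt1 it ran from 0.15 (without KO1) to 0.41 (without KO2). The plot of fold changes with an array left out gives the values for every tested member.

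**Figure D3:**
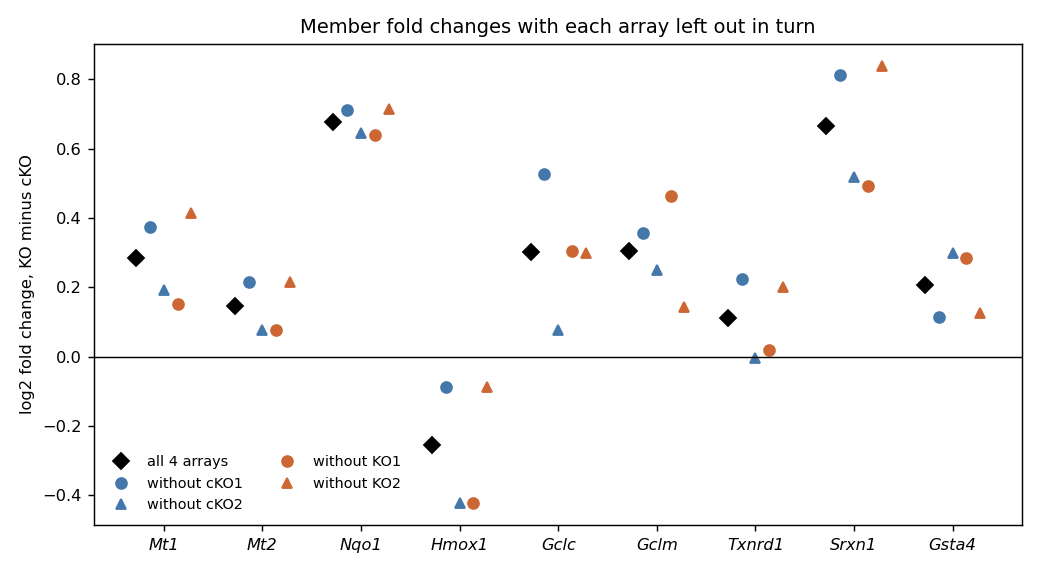
Log2 fold change (KO minus cKO, y axis) of the 9 tested members with all 4 arrays (diamonds) and with each array left out in turn (coloured circles and triangles). Nqo1 stays between 0.64 and 0.71, whereas Gclc runs from 0.08 to 0.53 and Txnrd1 reaches zero without cKO2.

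RNA of the genes whose proteins set NRF2 activity was examined next. Of 10 tested regulators limma called 0, where 2.2% of all genes were called. An unadjusted p under 0.05 was found for 4 of the 10, against 13.8% of all genes, and their median log2 fold change was 0.16. Nfe2l2 itself read 2059 in cKO1, 1824 in cKO2, 2553 in KO1 and 2457 in KO2, with groups apart (log2 fold change 0.37, SE 0.14, adjusted p = 0.297). Its inhibitor Keap1 had the same sign, with 712 and 601 against 884 and 860 (0.41, SE 0.17, adjusted p = 0.327). The repressor Bach1 followed the line number, with 1983 and 1347 against 1838 and 1283 (-0.09, adjusted p = 0.927), and its sign changed without cKO1 (0.19).

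Genes of the small MAF proteins, the DNA-binding partners of NRF2, differed in sign, and none passed in the fit of all 4 arrays without a block. Maff read 300 in cKO1, 304 in cKO2, 173 in KO1 and 110 in KO2, which gave a log2 difference of -1.10 (SE 0.27, adjusted p = 0.103 in limma). Mafk read 328 and 303 against 211 and 140 (-0.86, SE 0.25, adjusted p = 0.174). In both genes the cKO lines agreed closely and both KO lines lay below them. Without KO1 both passed, Maff at -1.41 (adjusted p = 0.01) and Mafk at -1.14 (adjusted p = 0.0303). Mafg, the third of the family, read 1771 and 1505 against 1967 and 1918 (0.25, adjusted p = 0.556).

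Further NRF2 targets outside the group held 3 genes that rose. Of 32 listed, 27 had a probe set for that gene alone, 20 were tested, 3 rose, 0 fell and 17 did not pass, where 0.632% of all genes tested rose. Values were positive on the log2 scale for 15 of 20, with a median of 0.21. Both KO signals lay above both cKO signals for 11 of 20, against 21.4% of all genes. For 4 of 20 (Gss, Me1, Abcc1 and Mgst1) both lay below, against 21.2% of all genes. Abcc4, an efflux pump for conjugates and nucleotides, read 2477 in cKO1, 2429 in cKO2, 4596 in KO1 and 4816 in KO2 (log2 fold change 0.94, SE 0.12, adjusted p = 0.0178 in limma). Cat (catalase, which breaks down hydrogen peroxide) read 1707 and 1715 against 3035 and 3018 (0.82, SE 0.13, adjusted p = 0.0291). Its second probe set was also higher in both KO lines, with 759 and 690 against 1364 and 1335. Gstm2, a glutathione transferase with close paralogues that may share its probes, read 947 and 942 against 1812 and 1557 (0.83, SE 0.15, adjusted p = 0.0483).

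These calls rested on small margins. Abcc4 remained called with each array left out. The call of Cat ended when either cKO array was left out (adjusted p = 0.0591 without cKO1, 0.056 without cKO2), and that of Gstm2 also without KO1 (adjusted p = 0.0951, 0.102 and 0.112 in the same order). Centring each array on its median ended all 3 (adjusted p = 0.0876 for Abcc4, 0.14 for Cat and 0.115 for Gstm2), and so did a fit without the variance trend (0.0724, 0.082 and 0.102). For Gstm2 the call also ended with no filter (adjusted p = 0.0596), quantile normalization (0.0511), the mean of probe sets (0.0531) and every probe set fitted on its own (0.0654), so it held in 5 of 14 alternatives.

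**Figure D4:**
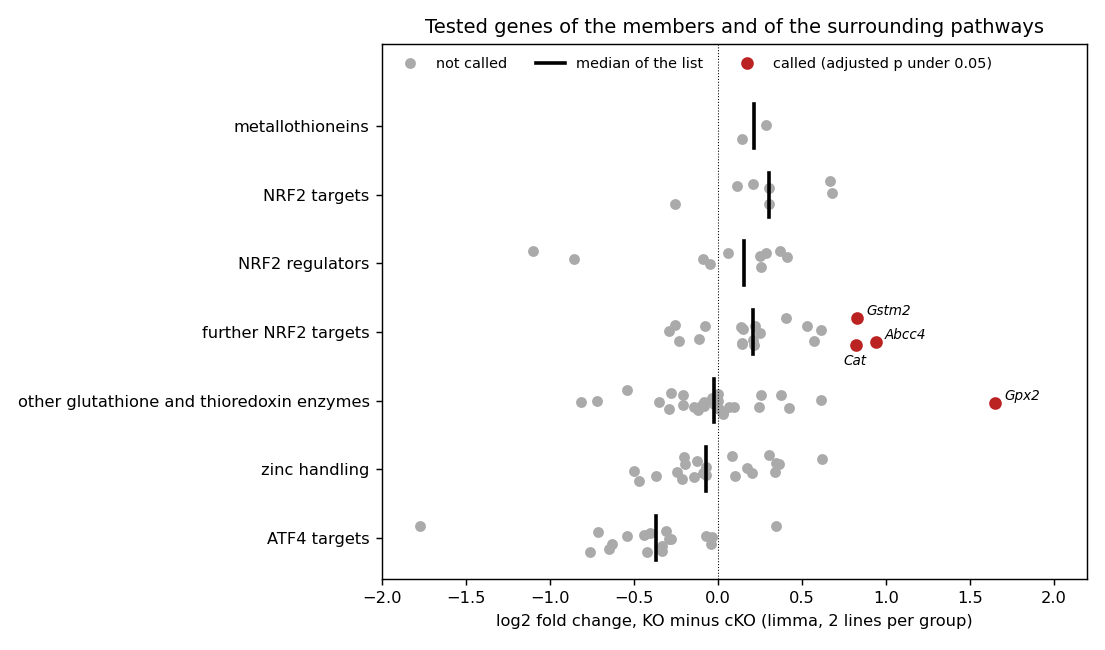
Log2 fold change (KO minus cKO, x axis) of the tested genes of the group and of 5 surrounding gene lists, with called genes in red and the median of each list as a black bar. The called genes are Abcc4, Cat, Gstm2 and Gpx2, all higher in KO, and the ATF4 targets lie mostly below zero.

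Other enzymes of the glutathione and thioredoxin systems held 1 gene that rose. Of 29 tested, 1 rose, 0 fell and 28 did not pass, where 0.632% of all genes tested rose and 1.57% fell, and the median log2 fold change was -0.02. Without cKO2 2 rose, and without KO2 1 fell. The gene that rose was Gpx2, a glutathione peroxidase of epithelia that is also known as an NRF2 target. It read 602 in cKO1, 680 in cKO2, 2218 in KO1 and 1835 in KO2, a rise of 1.65 on the log2 scale (SE 0.17, adjusted p = 0.0107 in limma) and 3.16-fold between the means. The call held with each array left out, and a fit without the variance trend gave an adjusted p = 0.0503.

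Zinc handling genes, some of which MTF1 also controls, had 0 of 21 tested members called in limma (1 rose without KO1), 1 with an unadjusted p under 0.05 against 13.8% of all genes, and a median log2 fold change of -0.07. Mtf1 read 393 in cKO1, 354 in cKO2, 404 in KO1 and 397 in KO2 (0.10, adjusted p = 0.877 in limma). Slc30a1, a zinc exporter known as an MTF1 target, read 1799 in cKO1, 1097 in cKO2, 2728 in KO1 and 1167 in KO2 (0.34, SE 0.40, adjusted p = 0.799). Its second probe set read 344 and 184 against 573 and 219. On both, KO1 was highest, then cKO1, KO2 and cKO2, and the difference between lines of one group was larger than the difference between groups. The dimmer Mt1 probe set had the same order. So did the brightest Txnrd1 probe set and the median signals of the arrays (81.6, 76.6, 64.9 and 64.4), so the order is not particular to these genes. Slc39a10, a zinc importer, read 2818 and 3129 against 2111 and 2170 (-0.47, SE 0.13, adjusted p = 0.158), and the exporter Slc30a2 read 241 and 183 against 180 and 120 (-0.50, adjusted p = 0.539).

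Targets of ATF4, the amino acid stress factor that also drives Slc7a11, mostly had negative values, and none passed. The 18 tested genes of this list include Atf4 itself, which overlapped between groups (-0.07, adjusted p = 0.921 in limma). Of the 18, 17 lay below zero on the log2 scale, the median being -0.37. Both KO signals lay below both cKO signals for 13 of the 18, against 21.2% of all genes. Limma called 0 of them, where 1.57% of all genes fell, while 10 had an unadjusted p under 0.05, against 13.8% of all genes. Slc7a1, a cationic amino acid transporter, read 2263 in cKO1, 2468 in cKO2, 1512 in KO1 and 1541 in KO2 (-0.63, SE 0.14, adjusted p = 0.0781). Atf3, a stress-induced transcription factor, read 392 and 221 against 120 and 56.2 (-1.78, SE 0.42, adjusted p = 0.0963). It passed without cKO2 (-2.18, adjusted p = 0.0249), without KO1 (-2.29, adjusted p = 0.00108) and with arrays centred on the median (-1.79, adjusted p = 0.02).

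The pattern over the 4 arrays was compared gene by gene, as the Euclidean distance between log2 signals centred over the arrays. It is a description of 4 arrays and carries no test. The genes nearest to Mt1 were Mitf (0.028), Cept1 (0.033) and Mapkbp1 (0.034), and Mt2 ranked 419 (0.17). Those nearest to Nqo1, the member with the widest difference, were Aspscr1 (0.053), Cemip2 (0.065) and Lrrc56 (0.074), and Srxn1 was the nearest member at rank 199 (0.25).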

How the data were processed

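The deposited values are intensity signals on a linear scale, made by the authors with MAS5 per the submitters' processing notes, with 1 signal per probe set and array. Its version and settings are not given in the sources used here. All 4 arrays had a trimmed mean of 500 (2% off each end). Each column was matched to a sample by its accession, and titles gave group and line number. Of 45101 probe sets, 34945 named 1 gene, and 34741 of these took a current symbol through a RefSeq gene table (GRCm38.p6).

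The members and lists were chosen with earlier results of these data known. Signals were converted to log2(signal + 4.79), the 10th percentile of all values, which understates changes of dim genes. A gene was represented by its probe set of highest mean log2 signal, and the lower 40% of genes were left out. The test of KO against cKO used limma 3.58.1 under R 4.3.3 (lmFit, eBayes with a variance trend, 2 residual and 5.13 prior degrees of freedom), with Benjamini-Hochberg adjustment over all 10916 genes. The procedure was tested on simulated data, where it called 41% of 2-fold and 87.3% of 4-fold changes, with 5.4% of the calls false. The simulated noise was independent between arrays, whereas same-numbered lines in the data deviated together, so these rates need not hold for the data. Genes named are the 10 members, Kdm6a, Nfe2l2, Keap1, Bach1, Mtf1, Slc30a1, up to 4 called or 2 uncalled genes per list, and the 3 genes nearest to Mt1 and Nqo1. Mafg, Mt3 and Mt4 were added to complete their families after their values were seen, and so were all statements on single marker genes. Atf4 and the further NRF2 targets lower in both KO lines were also named after their values were seen. Tables and figures were made in Python 3.11.15 (pandas 2.3.3, numpy 2.4.6, matplotlib 3.10.9).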

Additional observations from a re-analysis of the deposited data

How the results depend on the processing

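The alternatives were median centring, quantile normalization, a pseudocount of 1 or the 25th percentile, a filter on the lower 60% or none, a mean over probe sets, a separate test of each probe set, no variance trend, the line number as a block, and each array left out, where the lone line of a group was assumed to vary like the other group. Limma called 240 genes, and 147 without a filter, 154 with the stricter filter, 126 with the mean of probe sets and 28 without the variance trend. When 1 array was left out the count ran from 228 to 432, highest without KO1. None of the 9 tested members was called under these alternatives other than the block. Their median log2 fold change was 0.21 with the mean of probe sets and 0.19 to 0.36 with an array left out (lowest without cKO2). With the line number as a replicate block 1048 genes were called (9.6%), 3 members among them: Srxn1 (adjusted p = 0.0141), Mt1 (adjusted p = 0.0264) and Nqo1 (adjusted p = 0.0279). The block also brought under the threshold Kdm6a (adjusted p = 0.00811), Atf3 (0.0056), Slc7a1 (0.0106), Slc39a10 (0.0214), Maff (0.03), Mafk (0.0401) and Nfe2l2 (0.0473). The deviations of same-numbered lines from their group means correlated at 0.52 over genes, but the labels do not pair the lines. Signs changed for Txnrd1 with the mean of probe sets (-0.17) and without cKO2 (-0.0033), for Bach1 without cKO1 (0.19) and KO2 (0.17), and for Slc30a1 without cKO2 (-0.011) and KO1 (-0.27). Over the arrays left out, Txnrd1 ran up to 0.22, Bach1 down to -0.37 and Slc30a1 up to 0.95. The causes were not tested. As an alternative added after seeing the data, list counts were repeated with an array left out: further NRF2 targets that rose numbered 1 without either cKO line and 2 or 3 without a KO line, feeder markers that fell numbered 2 to 6 (6 without cKO2), NRF2 regulators that fell 0 to 2 (2 without KO1) and ATF4 targets that fell 0 or 1 (1 without cKO1, cKO2 or KO1). Of the primitive endoderm markers, 0 rose without cKO1, cKO2 or KO2, and 0 to 2 fell (2 without KO1). Embryonic stem cell markers that rose numbered 0 to 3 (3 without cKO1, 2 without KO2), trophoblast markers that rose 0 or 1 (1 without cKO1 or KO2), zinc handling genes that rose 0 or 1 (1 without KO1), and other glutathione and thioredoxin enzymes 1 or 2 that rose (2 without cKO2) and 0 or 1 that fell (1 without KO2). Signal close to background limits Slc7a11, the dim probe sets of Mt1, Srxn1 and Txnrd1, and the KO level of Atf3.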

Other observations

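A second probe set of Nfe2l2 lay under the filter level of 77.7 on all arrays and was not the one that represented the gene. It read 5.25 in cKO1, 4.29 in cKO2, 48.3 in KO1 and 34.0 in KO2. The mean of both Nfe2l2 probe sets, which gives this dim one equal weight, differed by 1.31 on the log2 scale (adjusted p = 0.0338 in limma), against 0.37 (adjusted p = 0.297) for the brightest probe set.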
